A study of Mus musculus with 8 samples.

Results

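Mature miRNAs were compared between Dicer conditional knockout (cKO) and wild-type footpad skin of C57BL6 mouse embryos at the embryonic stage E16.5, on 4 of the 8 single-colour Agilent miRNA arrays of a study of sweat gland development. The 4 arrays were taken by their labels: 2 held Dicer cKO RNA and 2 held wild-type RNA, and each replicate was RNA from the pooled footpads of 3 to 5 embryos. The other 4 arrays held the same genotypes at E17.5. They entered the fit, where they helped to estimate the spread, and they served as the comparison of stages. The labels do not name the Cre line or the cells in which Dicer was deleted. The array's probes read miRNAs and not Dicer mRNA and so give no measure of the extent of the deletion.

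Dicer is the endonuclease that cuts precursor miRNA hairpins into short duplexes, from which a guide strand is loaded into an Argonaute protein. Each hairpin can give a miRNA from its 5′ arm (5p) and from its 3′ arm (3p), and bases 2 to 8 of the mature strand, the seed, set most of its pairing with target mRNAs. The eccrine sweat glands of the mouse form in the footpads, as downgrowths of the epidermis into the dermis. In skin the miR-200 family, miR-203, miR-205 and the miR-183 cluster are known as epithelial miRNAs, whereas miR-199a, miR-214, miR-143 and miR-145a are known from mesenchymal cells.

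The mature strands below are those on which the comparison of the genotypes turns. They are shown 5′ to 3′ from RefSeq's GRCm38.p6 annotation, with the seed in capitals. The first 8 are epithelial miRNAs that were lower in the cKO, and the next 3 belong to the miR-183 cluster.
miR-200c-3p: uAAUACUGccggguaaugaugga
miR-200b-3p: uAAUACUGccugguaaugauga
miR-429-3p: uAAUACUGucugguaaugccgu
miR-141-3p: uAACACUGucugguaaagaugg
miR-200a-3p: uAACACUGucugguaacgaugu
miR-203-3p: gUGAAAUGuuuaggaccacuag
miR-203-5p: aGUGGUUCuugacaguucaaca
miR-205-5p: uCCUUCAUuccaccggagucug
miR-182-5p: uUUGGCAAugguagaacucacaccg
miR-183-5p: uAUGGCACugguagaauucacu
miR-96-5p: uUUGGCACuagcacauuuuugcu
The 6 strands that follow were lower outside these families.
miR-31-5p: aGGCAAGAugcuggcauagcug
miR-34a-5p: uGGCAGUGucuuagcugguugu
miR-221-3p: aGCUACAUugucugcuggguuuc
miR-210-3p: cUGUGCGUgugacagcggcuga
miR-365-3p: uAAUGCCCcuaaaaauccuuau
miR-193a-3p: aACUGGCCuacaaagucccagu
The last 4 were higher, among them the 3p strand of the same hairpin that gives miR-205-5p.
miR-342-3p: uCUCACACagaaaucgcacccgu
miR-181a-1-3p: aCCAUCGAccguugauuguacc
miR-196b-3p: uCGACAGCacgacacugccuuc
miR-205-3p: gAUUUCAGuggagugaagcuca

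Of 1881 mouse miRNAs on the array, 385 were detected on both arrays of at least 1 of the 4 groups and were tested. At E16.5, 365 and 281 miRNAs were detected on the cKO arrays and 367 and 279 on the wild-type arrays, so the counts went with the slide row (row 2 first, row 1 second) and were alike between genotypes. Within a genotype the 2 arrays correlated at r = 0.998 (cKO) and 0.997 (wild type) across miRNAs, which are not independent replicates, with median absolute differences of 0.0777 and 0.0850 on the log2 scale. Of the marker miRNAs, all 11 epithelial ones were detected on both wild-type arrays, and the 9 tested of 10 mesenchymal ones on all 4 arrays. This is no separate check of the tissue label. The lists were chosen with earlier results of these data known, and tested miRNAs had already met a detection rule. Levels below are scaled log2 signals. Each array was divided by its 75th percentile over probes detected on all 8 arrays, so 0 is that percentile. Values below a floor of −4.24 were raised to it. The spread of a group at the floor is 0 by construction, so the standard errors (SE) of such miRNAs are too small. No level of a miRNA is compared with that of another, since probes differ in response.

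At E16.5, 58 miRNAs were lower in the cKO (15.1% of the 385 tested) and 138 were higher (35.8%), or 50.9% in either direction, at an adjusted p under 0.05, by limma with Benjamini-Hochberg adjustment over all 385. With this scaling the falls were fewer than the rises, with a median of −0.51 against 0.34. Of the 58 lower miRNAs 14 were lower by at least 2-fold, and of the 138 higher 1 was higher by at least 2-fold. The median difference over all 385 was 0.19. The arrays of the genotypes did not overlap for 74 miRNAs in the direction of lower cKO values (19.2%) and for 216 in the direction of higher ones (56.1%). The 3 miRNAs nearest below the threshold had differences of 0.27 to 0.33 (adjusted p from 0.0480 to 0.0486), and the 3 nearest above it had differences of 0.31 to 0.36 (adjusted p from 0.0501 to 0.0516).

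Whether most small differences passed, and the direction of some of them, depended on how the arrays were put on a common scale. Under all 6 scalings tried, 17 miRNAs remained lower (4.42%) and 2 remained higher (0.519%). With the arrays scaled on 19 control probes, 99 miRNAs were lower (25.7%) and 9 higher (2.34%), and the median of all tested moved from 0.19 to −0.02. With scaling on all miRNA probes 18 were lower and 5 higher, and with no scaling 17 and 4. Higher miRNAs made up 70.4% of calls with the 75th percentile, 63.1% with quantile scaling, 66.3% with the median, 21.7% with all probes, 19.0% without scaling and 8.33% with control probes. The 75th percentile lay at −6.35 and −6.36 log2 units from the control probes on the cKO arrays and at −6.05 and −6.08 on the wild-type arrays. The part that a change in total miRNA plays in this offset was not tested. The number of higher miRNAs also rested on single arrays: it was 59 without cKO replicate 1, 87 without wild-type replicate 1 and 90 without either E17.5 wild-type array.

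**Figure D1:**
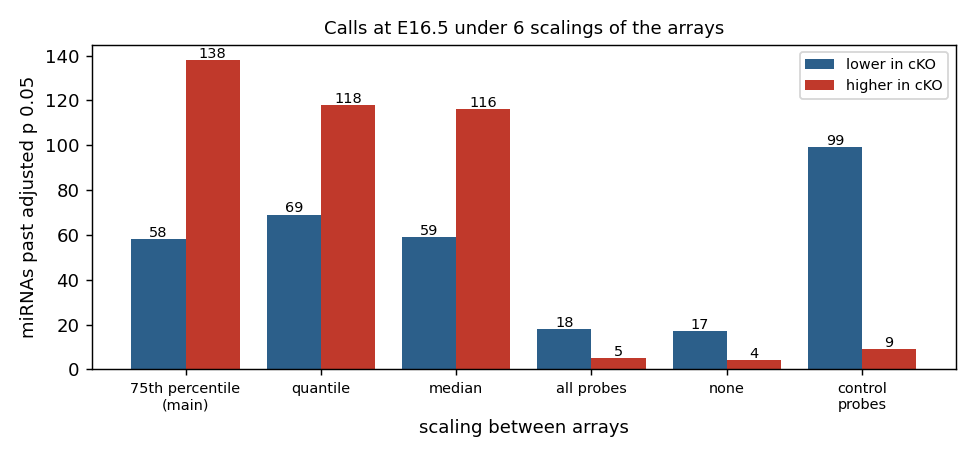
Number of miRNAs past an adjusted p of 0.05 at E16.5 (y axis, bars from 0) under 6 scalings of the arrays (x axis), blue for lower and red for higher in Dicer cKO. The higher bar falls from 138 with the 75th percentile to 9 with control probes, while the lower bar goes from 58 to 99.

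The 17 miRNAs that were lower under every scaling formed the steady core of the difference, and 11 of them were the entire skin epithelium list. That list was chosen with earlier results of these data known. It held both strands of the Mir203 hairpin, which fell. The strand of the Mir205 hairpin that was higher, by 0.85, was kept in a separate list. The full count of 11 thus depends in part on how the list was drawn. In all 17 both cKO arrays lay below both wild-type arrays, against 19.2% of all tested, with a smallest gap of 0.64 between the groups. The difference was negative in both rows of the slide, as it must be where the arrays do not overlap. All 17 also passed when only the 4 E16.5 arrays were fitted, against 41 of all 58 lower miRNAs. The 17 were picked by their calls on these same arrays, so these counts are no separate support. In RNA of whole tissue, fewer cells of a type and less of a miRNA per cell cannot be told apart.

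**Figure D2:**
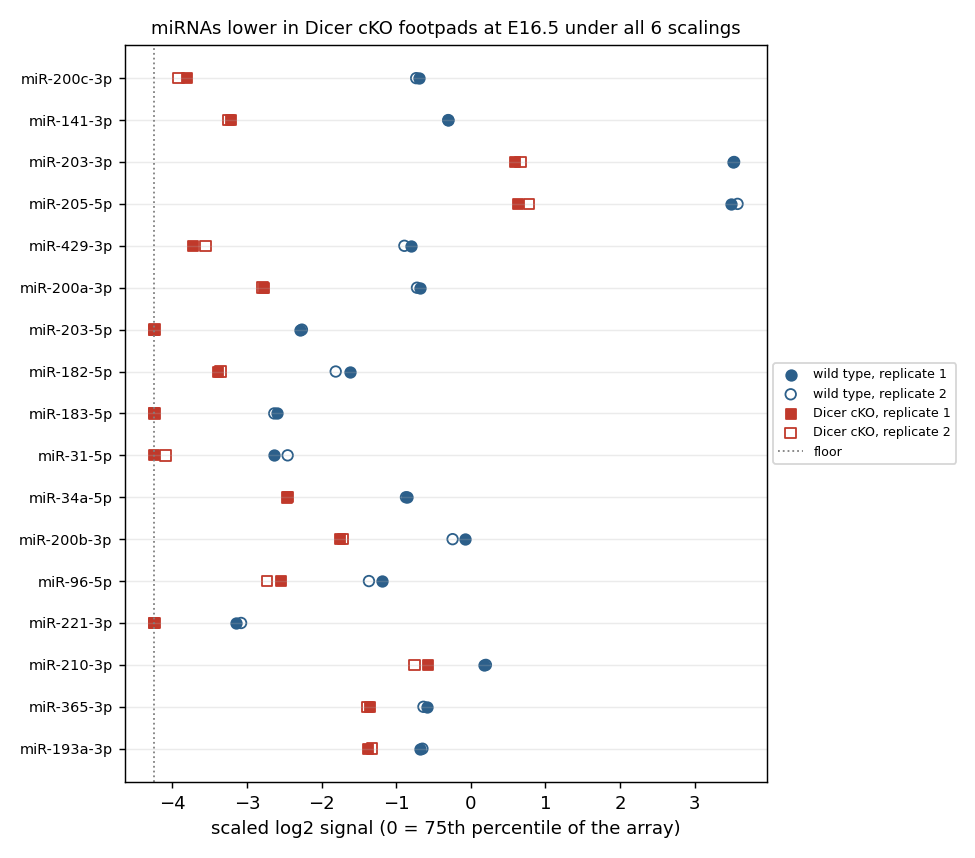
Scaled log2 signal (x axis, 0 is the 75th percentile of the array) on each E16.5 array for the 17 miRNAs lower under all 6 scalings, with circles for wild type, squares for Dicer cKO, and filled and open symbols for replicates 1 and 2. Every square lies left of its circles, and both squares of miR-203-5p, miR-183-5p and miR-221-3p sit on the dotted floor at −4.24.

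The miR-200 family represses the transcription factors Zeb1 and Zeb2 and is known for holding cells in an epithelial state. Its 5 members all fell. The signal of miR-200c-3p was −3.81 and −3.92 on the cKO arrays against −0.69 and −0.73 on the wild-type arrays, a fall by 3.15 ± 0.154 (SE, 2 arrays a group, adjusted p = 0.000157, 8.90-fold). It was detected on 1 of 2 cKO arrays, and with each cKO array held at no less than its lowest signal well above background the fall was at least 7.88-fold. For miR-141-3p the cKO arrays read −3.21 and −3.25 and the wild-type arrays −0.31 and −0.30, a fall by 2.92 ± 0.139 (7.59-fold, adjusted p = 0.000157). These 2 are made from a pair of hairpins on chromosome 6, where the file headers place the targets of their probes in mm9 at chr6:124668392-124668406 and chr6:124667985-124668000 on the minus strand. RefSeq lists no host gene for either.

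The other 3 members come from a second cluster, which RefSeq places within the transcript Gm13648. miR-429-3p fell by 2.80, from −0.80 and −0.89 in wild type to −3.72 and −3.56 in the cKO, with detection on 1 of 2 cKO arrays. miR-200a-3p fell by 2.08, from −0.68 and −0.72 to −2.78 and −2.79. miR-200b-3p fell by 1.58, from −0.07 and −0.24 to −1.75 and −1.71. The groups stood apart for each, and the sizes within the cluster were unequal, with a 95% interval of −1.85 to −1.31 for miR-200b-3p and of −3.21 to −2.38 for miR-429-3p. Whether the members differ was not tested. The seed AAUACUG of miR-200b-3p, miR-200c-3p and miR-429-3p thus spanned differences from −3.15 to −1.58, and the seed AACACUG of miR-141-3p and miR-200a-3p differences of −2.92 and −2.08.

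miR-203 is known to promote the exit of epidermal progenitors from the cell cycle through p63. Its guide strand miR-203-3p read 0.59 and 0.66 in the cKO and 3.52 and 3.53 in wild type, a fall by 2.90 ± 0.166 (7.46-fold, adjusted p = 0.00027). The 5p strand of the same hairpin was not well above background on either cKO array and read −2.29 and −2.26 in wild type, which makes the fall at least 3.09-fold (adjusted p = 2.03e-05). The probe target of miR-203-3p lies at chr12:113369143-113369159 on the plus strand (mm9), with no host gene in RefSeq.

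miR-205 is a miRNA of basal epithelial cells. miR-205-5p read 0.64 and 0.78 in the cKO against 3.49 and 3.58 in wild type, a fall by 2.83 ± 0.134 (7.10-fold, adjusted p = 0.000157). Both probes for it gave the difference, at −2.83 and −2.91. Its hairpin lies within Mir205hg, with the probe target at chr1:195333670-195333684 on the minus strand (mm9). The gap between the genotypes was many times the gap between replicates of either.

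The miR-183, miR-96 and miR-182 cluster, best known from sensory organs, lies within the transcript Mirc35hg on chromosome 6. All 3 strands fell. miR-182-5p read −3.39 and −3.36 in the cKO and −1.62 and −1.81 in wild type (a fall by 1.66 ± 0.137, adjusted p = 0.000774). miR-96-5p read −2.54 and −2.73 against −1.19 and −1.37 (a fall by 1.36 ± 0.143, adjusted p = 0.00172). miR-183-5p was not well above background on both cKO arrays and read −2.60 and −2.64 in wild type, at least 2.45-fold higher there.

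Outside the epithelial list, 6 miRNAs fell under every scaling. miR-34a-5p, a direct target of p53, read −2.46 on both cKO arrays and −0.85 and −0.87 in wild type, a fall by 1.60 ± 0.0742 (3.03-fold, adjusted p = 0.000157). miR-31-5p, known from keratinocyte growth and the hair cycle, was not well above background in the cKO (−4.24 and −4.09) and read −2.64 and −2.46 in wild type, at least 2.56-fold higher (adjusted p = 0.000418). miR-221-3p was likewise not well above background in the cKO and read −3.15 and −3.08 in wild type, at least 1.73-fold higher. Its cluster partner miR-222-3p, which has the same seed GCUACAU, was at the floor on all 4 arrays, so it has no measured difference.

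miR-210-3p, which hypoxia induces through HIF1, read −0.58 and −0.76 in the cKO against 0.18 and 0.20 in wild type, a fall by 0.86 ± 0.0821 (1.81-fold, adjusted p = 0.00131). miR-365-3p fell by 0.76 ± 0.0429, from −0.59 and −0.64 to −1.35 and −1.38. miR-193a-3p fell by 0.69 ± 0.0334, from −0.68 and −0.65 to −1.38 and −1.33. miR-193b-3p, which shares the seed ACUGGCC with miR-193a-3p, was lower by 0.55 ± 0.0402 (adjusted p = 0.000547) but passed under 4 of the 6 scalings.

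Smaller falls were found in some, not all, groups of miRNAs with a shared seed. These groups hold only miRNAs whose sequence was matched by name. The 5 tested miRNAs with the seed AAAGUGC, which are known to promote cell cycle entry, were all lower, with a median of −0.54.
miR-93-5p: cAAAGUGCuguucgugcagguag
miR-106b-5p: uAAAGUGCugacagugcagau
miR-20a-5p: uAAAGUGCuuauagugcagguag
miR-17-5p: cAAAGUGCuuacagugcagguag
miR-20b-5p: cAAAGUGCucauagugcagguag
miR-93-5p read −0.40 and −0.45 in the cKO and 0.40 and 0.22 in wild type, a fall by 0.74 ± 0.0628 (adjusted p = 0.000808). miR-106b-5p fell by 0.66, miR-20a-5p by 0.54, miR-17-5p by 0.52 and miR-20b-5p by 0.50. The groups did not overlap for any of the 5, against 19.2% of all tested in that direction. They come from 3 genomic clusters, of which that of miR-93 and miR-106b lies within Mcm7, a replication licensing gene.

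Of the 10 tested members of the miR-17 clusters, 8 were lower against a background of 15.1%, with a median of −0.51 against 0.19 for all tested. With control probes all 10 were lower, against 25.7% of all tested. miR-18a-5p of this list was lower by 0.59 ± 0.0488 (adjusted p = 0.000774). Both tested miRNAs with the seed GCAGCAU, miR-103-3p (−0.56) and miR-107-3p (−0.59), were also lower, as were both with UCACAGU, miR-27a-3p (−0.54) and miR-27b-3p (−0.26). Other seed groups were split. Of the 4 matched miRNAs with AGUGCAA, miR-301a-3p was lower by 0.70 ± 0.0569 (adjusted p = 0.000749). miR-721 was higher by 0.40, with 1 wild-type array at the floor, while miR-130a-3p (0.14) and miR-130b-3p (−0.22) did not pass. The lower miRNAs named in this paragraph passed under 4 of the 6 scalings, and miR-27a-3p under 5, with the 2 scalings that left most of them out being none and that on all miRNA probes.

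Of the 8 tested miRNAs of the keratinocyte differentiation and barrier list, 6 were lower and 1 was higher, against 15.1% and 35.8% of all tested, with a median of −0.31 against 0.19. Of these 6, 3 were already given among the 17 lower under every scaling: miR-203-3p, miR-31-5p and miR-34a-5p. miR-21a-5p read 0.49 and 0.38 in the cKO and 0.83 and 0.67 in wild type (a difference of −0.32 ± 0.0672, adjusted p = 0.0171, and 0.0627 without cKO replicate 2). miR-24-3p was lower by 0.31 ± 0.0480. The higher member was miR-125b-5p, at 4.59 and 4.60 against 4.43 and 4.27 (a difference of 0.24), which turned to −0.05 with control probes and did not pass without either E16.5 cKO array or either E17.5 cKO array.

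The let-7 family, which restrains growth in differentiated cells, was split. All 9 members were tested and 4 were lower, against 15.1% of all tested: let-7g-5p (−0.28), let-7i-5p (−0.36), let-7d-5p (−0.37) and miR-98-5p (−0.45). The list's median was −0.04, all 9 lay below the median of all tested, and 7 were lower with control probes, where 25.7% of all tested were. let-7d-5p read 1.08 and 0.99 in the cKO against 1.46 and 1.36 in wild type (adjusted p = 0.00474). let-7g-5p passed in 2 of 8 fits that each left out 1 array, only those without cKO replicate 1 or wild-type replicate 2.

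**Figure D3:**
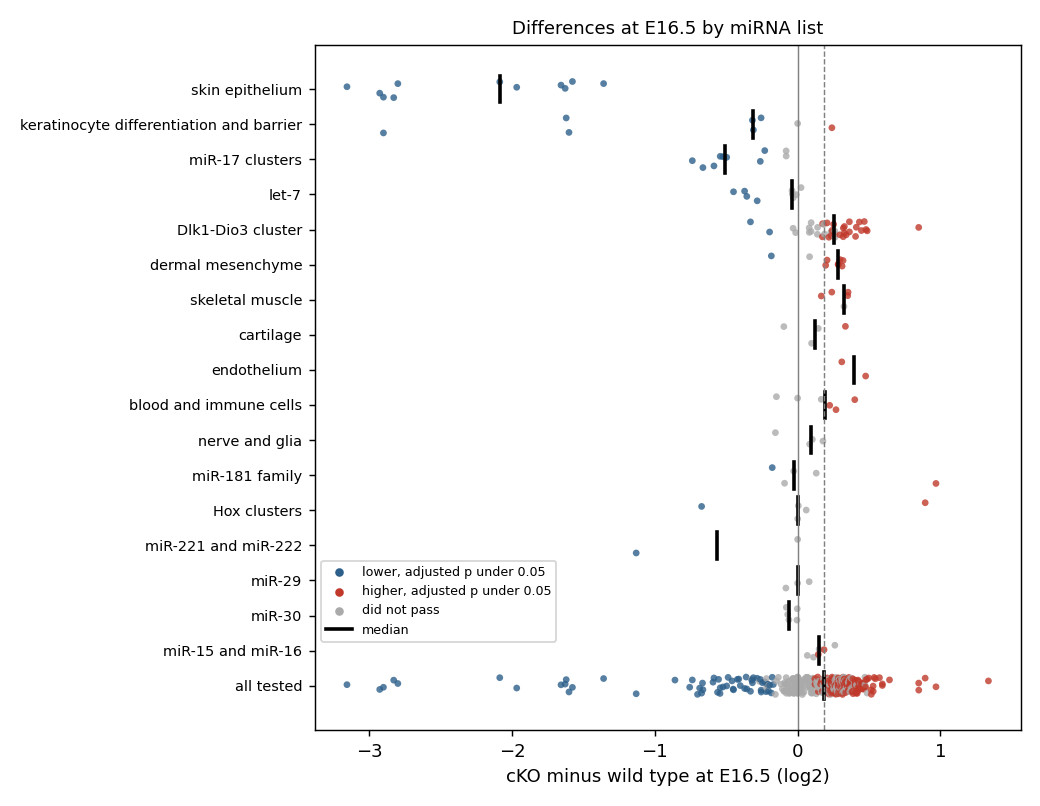
Difference in scaled log2 signal between Dicer cKO and wild type at E16.5 (x axis) for each tested miRNA, by list (y axis), with blue for lower, red for higher and grey for not passed at an adjusted p of 0.05. Black bars mark the median of each list, the dashed line marks the median of all tested (0.19), and the skin epithelium list has its median at −2.08.

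The miRNA with the largest rise was miR-342-3p, which lies within the gene Evl. It read −0.29 and −0.33 in the cKO against −1.57 and −1.73 in wild type, higher by 1.34 ± 0.0892 (2.52-fold, adjusted p = 0.000418). Both cKO arrays lay above both wild-type arrays, the 2 probes gave 1.34 and 1.28, and with control probes the difference was 1.05. miR-196b-3p was the other miRNA higher under all 6 scalings: it read −3.42 and −3.28 in the cKO and was not well above background on either wild-type array, which makes it at least 1.52-fold higher (adjusted p = 0.000693).

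miR-181a-1-3p, the less abundant strand of a miR-181a hairpin, read −3.22 and −3.21 in the cKO against −4.12 and −4.24 in wild type, higher by 0.97 ± 0.0766 (adjusted p = 0.000693), and passed under 5 scalings. It was detected on 1 of 2 wild-type arrays and at the floor on the other, so its fitted size is set in part by the floor, and by the same rule as for miR-200c-3p it was at least 1.61-fold higher. miR-376c-3p was higher by 0.85 ± 0.155 (−1.37 and −1.52 against −2.23 and −2.36, adjusted p = 0.0109, and 0.0617 without cKO replicate 1). It passed under 3 scalings. miR-3063-3p was higher by 0.64, miR-30b-3p and miR-7212-3p each by 0.59, miR-680 by 0.57 and miR-290a-5p by 0.54. miR-290a-5p was detected on 1 array of each genotype, with both wild-type values at the floor, so its difference and its error are set in part by the floor. miR-7212-3p and miR-30b-3p were each detected on 1 of 2 wild-type arrays. Of the others, miR-3063-3p and miR-7212-3p passed in all 8 fits with 1 array left out, miR-30b-3p in 2 (without either E16.5 wild-type array) and miR-680 in 0, where its adjusted p lay between 0.0596 and 0.179.

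Beyond these, the rises were small. Of the 138 higher miRNAs, 123 differed by under 0.5 on the log2 scale. With control probes 40 of the 138 had a difference below 0 and 9 passed. Of the 138, 49 passed in all 8 fits with 1 array left out, and 46 passed when only the E16.5 arrays were fitted, against 44 and 41 of the 58 lower miRNAs.

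The imprinted Dlk1-Dio3 cluster on chromosome 12, whose miRNAs come from the maternal allele and are abundant in embryonic mesenchyme, gave the largest block of higher miRNAs. Of its 39 tested members 24 were higher and 2 lower, against 35.8% and 15.1% of all tested, with a median of 0.25 against 0.19. With control probes 4 members were lower, against 25.7% of all tested, the rest did not pass, and the median was −0.03. miR-323-3p (0.49), miR-379-3p (0.48) and miR-134-5p (0.47) followed miR-376c-3p, with 0.24, 0.19 and 0.18 under control probes. miR-379-3p read −1.64 and −1.68 in the cKO against −2.11 and −2.17 in wild type. Its hairpin is the first of 24 with tested miRNAs in a run on chromosome 12 with gaps of at most 10 kb. The 24 are only hairpins whose tested miRNAs were matched by name to a single RefSeq locus, and miR-376c-3p is not among them. They gave 31 tested miRNAs: 19 were higher and the rest did not pass.

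Marker miRNAs of cells other than the epithelium were mostly higher, by sizes of the order of the median of all tested (0.19). Of 9 dermal mesenchyme miRNAs 7 were higher and 1 lower, against 35.8% and 15.1% of all tested, with a median of 0.28. With control probes 1 was lower, against 25.7% of all tested, the rest did not pass, and the median was −0.0030. miR-199a-5p read 4.11 and 4.08 in the cKO and 3.84 and 3.75 in wild type (0.30 ± 0.0423, adjusted p = 0.00504), but the difference was 0.01 with control probes and −0.02 with quantile scaling. miR-199a-3p (0.31) and miR-214-5p (0.32) were also higher. miR-143-3p was the lower member (−0.18), and miR-145a-5p, from the same locus, was higher by 0.28 with the 75th percentile and differed by −0.0030 with control probes. Without cKO replicate 1 neither miR-199a-3p, miR-214-5p nor miR-143-3p passed, and without cKO replicate 2 none of these 3 nor miR-145a-5p did. miR-214-5p was also lost without wild-type replicate 2 or either E17.5 cKO array. miR-143-3p passed only without either of the E17.5 cKO arrays, and miR-145a-5p only without cKO replicate 1. The summed signal of the list was 6.05 and 6.01 in log2 units on the cKO arrays and 5.82 and 5.68 on the wild-type arrays, a difference of 0.28. For the skin epithelium list the sums were 2.05 and 2.12 against 4.78 and 4.80, a difference of −2.71.

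Of 5 skeletal muscle miRNAs, 4 were higher, against 35.8% of all tested, with a median of 0.32 (0.04 with control probes). miR-206-3p read 2.16 and 2.05 in the cKO against 1.76 and 1.74 in wild type (0.35 ± 0.0568, adjusted p = 0.00725). miR-1a-3p was higher by 0.35 and miR-133a-3p by 0.24, the latter turning to −0.05 with control probes, and miR-499-5p differed by 0.32 without passing (0.47, adjusted p = 0.0112, without cKO replicate 2). The endothelial pair was higher too: miR-126a-5p by 0.48 ± 0.0555 and miR-126a-3p by 0.31 ± 0.0593. miR-126a-5p was detected on 1 of 2 wild-type arrays, and by the same rule as for miR-200c-3p it was at least 1.39-fold higher. Its second probe was at the floor in both genotypes. Without cKO replicate 1, miR-1a-3p, miR-133a-3p and miR-126a-3p did not pass, nor did miR-133a-3p without wild-type replicate 1. With control probes the adjusted p of these 5 higher miRNAs lay between 0.206 and 0.935. The list sums differed by 0.27 (muscle) and 0.32 (endothelium).

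Of 4 cartilage miRNAs only miR-455-3p passed, as higher, against 35.8% of all tested. Its difference was 0.33 ± 0.0799 (adjusted p = 0.0236). It passed in 3 of 8 fits with 1 array left out, those without wild-type replicate 2 or either E17.5 cKO array. miR-455-5p (−0.10, passing without wild-type replicate 2), miR-140-3p (0.14) and miR-140-5p (0.10) did not. Of 6 blood and immune cell miRNAs 3 were higher: miR-486a-5p (0.40), miR-223-3p (0.27) and miR-146a-5p (0.22), against 35.8% of all tested, and the last 2 were below 0 with control probes. The list's median was 0.20, and −0.04 with control probes, where none of the 6 was called in either direction. miR-486a-5p and miR-223-3p did not pass without cKO replicate 1 or wild-type replicate 2, nor did miR-486a-5p without cKO replicate 2 or either E17.5 wild-type array. miR-142a-3p, found in most white blood cells, differed by 0.17 without passing. The list sums differed by 0.16 (cartilage), 0.14 (blood) and 0.09 (nerve and glia).

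None of the 4 nerve and glia miRNAs passed by limma, against 50.9% of all tested in either direction, and 1 had an unadjusted p under 0.05. They were miR-128-3p (0.18), miR-219a-5p (−0.16), miR-338-3p (0.10) and miR-218-5p (0.08). For miR-338-3p and miR-218-5p the arrays of the genotypes overlapped. miR-219a-5p passed without wild-type replicate 1 and miR-338-3p without cKO replicate 2. The part that a shift in cell mixture plays in any of these differences was not tested.

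miR-451a, a red cell miRNA that Argonaute 2 cuts without Dicer, read 1.93 and 1.86 in the cKO and 1.84 and 1.21 in wild type. The difference of 0.37 did not pass (95% interval −0.19 to 0.94, adjusted p = 0.209), and it passed without wild-type replicate 1 (0.68, adjusted p = 0.0315), when the lower wild-type array alone stood for its group. Of the 3 tested miRNAs known to be made without Drosha, the nuclease that acts before Dicer, miR-1224-5p was higher by 0.31 ± 0.0934 and passed in 1 of 8 fits with 1 array left out, that without cKO replicate 2. miR-484 (−0.32) and miR-320-3p (−0.0022) did not pass. The share higher over all tested was 35.8%.

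Of the 5 tested miR-181 miRNAs, miR-181a-1-3p was higher and miR-181d-5p lower (−0.18, in 2 of 8 fits with 1 array left out, those without an E17.5 wild-type array), while miR-181a-5p (0.13) and miR-181c-5p (−0.09) did not pass. Of 5 miRNAs from the Hox clusters, miR-196b-3p was higher and miR-196a-5p lower. For both lists the shares over all tested were 35.8% higher and 15.1% lower. miR-196a-5p read −2.45 and −2.52 in the cKO against −1.79 and −1.85 in wild type (−0.67 ± 0.0442, adjusted p = 0.000418) and passed under 4 scalings. Its seed partner miR-196b-5p (0.06) and miR-10b-5p (0.0050) did not pass.

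The miR-29 family, which represses collagens, and the miR-30 family gave no calls by limma, adjusted or at an unadjusted p under 0.05 (0 of 3 and 0 of 5). After adjustment 50.9% of all tested were called in either direction. The 5 miR-30 differences lay between −0.08 and −0.0027, below the median of all tested. With control probes all 5 were lower, against 25.7% of all tested. miR-29b-3p was at the floor on all 4 arrays. Of the 6 miR-15 and miR-16 relatives, 2 were higher with the 75th percentile, against 35.8% of all tested. They were miR-322-5p (0.18) and miR-15a-5p (0.14), which differed by −0.10 and −0.14 with control probes. Neither passed without either E16.5 cKO array or wild-type replicate 2. miR-322-5p was also lost without either E17.5 cKO array, and miR-15a-5p without wild-type replicate 1 or either E17.5 wild-type array.

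Both strands were tested for 47 hairpins. Of these, 10 had both strands higher, 1 had both lower (Mir203), 22 had a call in 1 strand, 12 in neither and 2 had opposite calls. In 10 of the 47 hairpins a strand was at the floor on all 4 arrays, so its difference was not measured. Over the other 37 hairpins the median absolute difference between the strands was 0.15.

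The widest split was at Mir205. While miR-205-5p fell by 2.83, miR-205-3p read −3.27 and −3.11 in the cKO against −3.96 and −4.12 in wild type, higher by 0.85 ± 0.171 (adjusted p = 0.0147). Its adjusted p was 0.0530 without cKO replicate 1, 0.0586 without cKO replicate 2 and 0.0566 without wild-type replicate 2. It was detected on both cKO arrays and on 1 of 2 wild-type arrays, its second probe gave 0.39, and with control probes the difference was 0.56. No other strand among the 9 opposite strands of the epithelial hairpins met the detection rule.

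At the Mir181a-1 hairpin the 3p strand was higher by 0.97 and miR-181a-5p differed by 0.13. At Mir196b the 3p strand was higher by 0.89 and the 5p strand differed by 0.06. At Mir17 the 5p strand was lower by 0.52, whereas miR-17-3p differed by −0.03 and did not pass. The other hairpin with opposite calls was Mir652, with 0.25 for 5p and −0.22 for 3p, and the 5p value was −0.04 with control probes. The 5p call was kept in 3 of 8 fits with 1 array left out, those without wild-type replicate 2 or either E17.5 cKO array. The differences between strands were not tested as such.

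**Figure D4:**
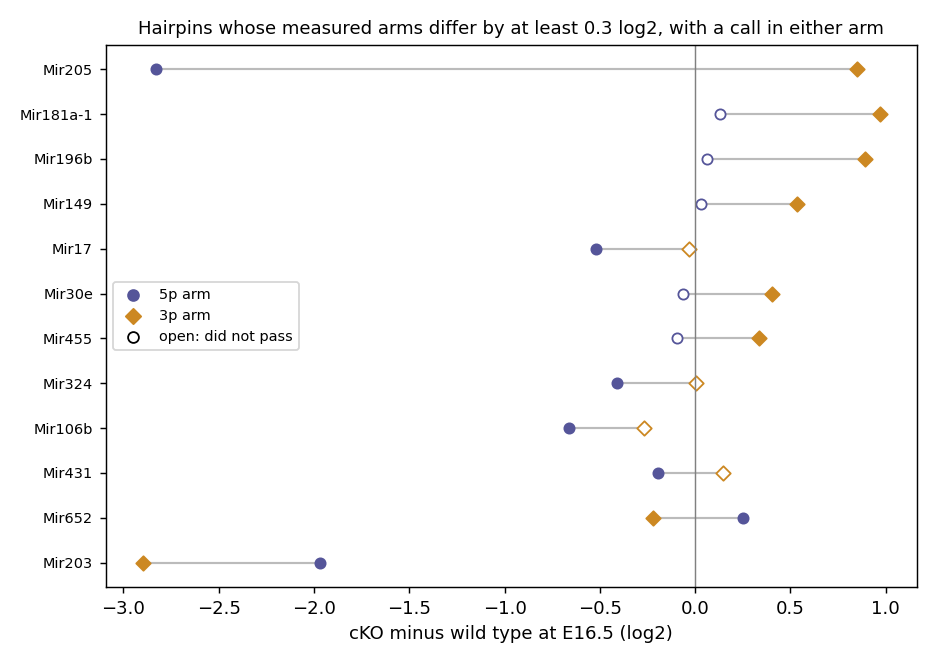
Difference between Dicer cKO and wild type at E16.5 (x axis, log2) for the 5p strand (circles) and 3p strand (diamonds) of 12 hairpins whose measured strands differ by at least 0.3 with a call in either, open symbols for strands that did not pass. Mir205 spans from −2.83 to 0.85, and Mir652 is the other hairpin with filled symbols on both sides of 0.

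At E17.5, 39 miRNAs were lower (10.1%) and 139 higher (36.1%). All 17 miRNAs lower under every scaling at E16.5 were lower at E17.5 too. The fall was larger at E17.5 in 14 of the 17, such as miR-200c-3p (−3.56 against −3.15), miR-203-3p (−3.48 against −2.90) and miR-205-5p (−3.40 against −2.83). The test of the difference between stages passed for 0 of the 17 by limma, and 5 had an unadjusted p under 0.05. For miR-205-5p that difference was −0.58 (95% interval −1.06 to −0.09, adjusted p = 0.129), and for miR-203-3p −0.58 (−1.18 to 0.02, adjusted p = 0.188).

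Of all 58 miRNAs lower at E16.5, 37 were lower and 2 higher at E17.5. Of the 138 higher, 88 were higher and 0 lower. The rise of miR-342-3p was 1.34 at E16.5 and 0.74 at E17.5 (difference −0.59, adjusted p = 0.0748). The rise of miR-181a-1-3p was 0.97 and 0.92, with a difference of −0.05 (95% interval −0.33 to 0.23), and that of miR-205-3p was 0.85 and 0.82, with a difference of −0.03 (−0.65 to 0.59). Across all 385 the difference between stages passed for 6 miRNAs (1.56%).

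**Figure D5:**
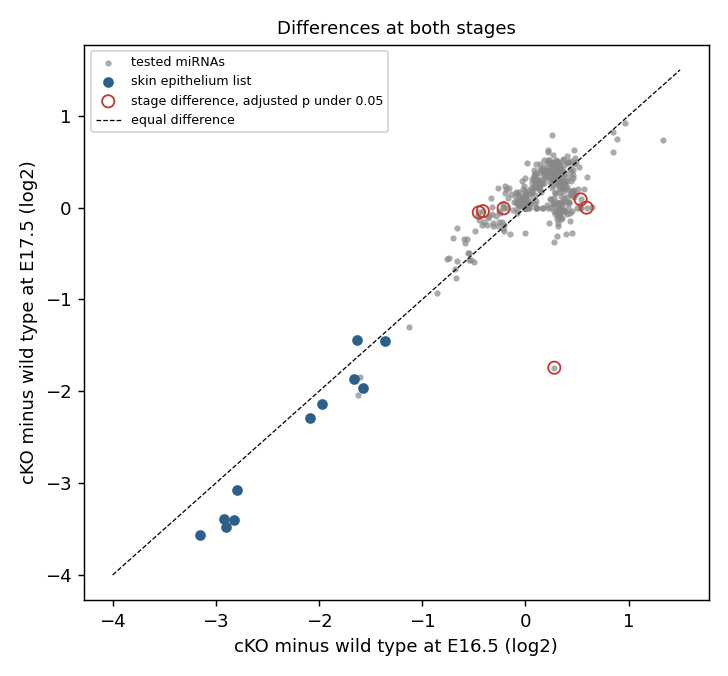
Difference between Dicer cKO and wild type at E17.5 (y axis, log2) against that at E16.5 (x axis, log2) for the 385 tested miRNAs, with the 11 skin epithelium miRNAs in blue, the 6 with a stage difference past an adjusted p of 0.05 circled in red, and a dashed line of equal difference. Of the epithelial miRNAs all but miR-183-5p lie below the dashed line, and miR-6997-5p is the circled point far below the rest.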

How the data were processed

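RNA from embryonic footpad skin was hybridised to single-colour (Cy3) arrays on 1 slide. Agilent Feature Extraction 11.5.1.1 gave, per the file headers, a background-subtracted intensity for each spot. The deposited intensity values were not scaled between arrays. The deposited value table equalled the scanner signal within 0.02 in 100% of positive spots. No spot was saturated (0), and 2.84% to 6.02% were flagged and left out.

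Here, unflagged spots of each of 4415 probes were averaged, divided by the array's 75th percentile over the 474 probes detected on all 8 arrays, floored at −4.24 and put on the log2 scale. A probe was detected where over 50% of its spots were well above background. Each miRNA took its brightest probe. For the 226 miRNAs with at least 2 detected probes, the median range between probes was 0.0422, and 0 of the 12 with opposite signs were called. Limma 3.58.1 (R 4.3.3) fitted 4 group means to all 8 arrays (residual degrees of freedom 4, prior 1.08), and the method was tested on simulated data. With 2 arrays a group, the p-values rest on the spread between arrays within the 4 groups. In that spread, pool and slide row cannot be told apart. The number of arrays limits the precision.

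Bounds ("at least") set each dim array at the higher of its lowest signal well above background and the miRNA's own value, after flooring. Sequences from RefSeq matched 332 of the 385 miRNAs by name, and seed groups hold only these. miR-301b-3p, lower in the cKO (−0.67) and detected on 1 of 2 cKO arrays, was not matched and is in no seed group. The comparison, the lists and the rule for named miRNAs were chosen with earlier results of these data known. That rule took the skin epithelium list, the 10 largest falls and rises, miRNAs detected in 1 genotype, stage differences and up to 4 members of each list. Others (such as miR-210-3p, miR-365-3p, miR-193a-3p, miR-301a-3p and the seed partners) were named after their values were seen. Replicate number goes with slide row. Same-numbered E16.5 arrays deviated with a correlation of −0.14, so numbers were not taken as pairs. Genotypes fill separate columns of the slide, so column and genotype cannot be told apart. Alternatives were other scalings, background, filters, floors, probe rules, the value table, a replicate block and leaving out each array.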

Additional observations from a re-analysis of the deposited data

Results flagged for a closer look

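For 6 miRNAs the difference between cKO and wild type at E16.5 was not the same as at E17.5 by limma's test of the difference itself, given here as the E17.5 difference minus the E16.5 difference. The widest was miR-6997-5p at −2.02 ± 0.158 (SE, adjusted p = 0.00597). It read −2.12 and −2.30 in the cKO and −2.62 and −2.35 in wild type at E16.5, where its difference of 0.28 did not pass, and −2.35 and −2.32 against −0.55 and −0.64 at E17.5. Only the E17.5 wild-type arrays stood apart, and the stage difference passed in 9 of 10 settings. RefSeq places the hairpin of miR-6997-5p within Sptan1, and no cell type is assigned to it here.

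The other 5 differed by far less and have very small standard errors, some because arrays lay at the floor. miR-7212-3p gave −0.59 (adjusted p = 0.000149), with all 4 E17.5 arrays at the floor, and miR-149-3p gave −0.45 (adjusted p = 0.00057), with both E17.5 wild-type arrays at the floor. miR-33-5p gave 0.20 (adjusted p = 0.0218), with both E16.5 cKO arrays at the floor. miR-324-5p gave 0.37 (adjusted p = 0.0490) and miR-298-5p 0.40 (adjusted p = 0.0218), each lower in the cKO at E16.5 (by −0.41 and −0.45) and near 0 at E17.5 (−0.04 and −0.05). Over the settings that could be run (9 or 10), miR-7212-3p passed in 5, miR-149-3p in 3, and miR-33-5p, miR-324-5p and miR-298-5p in 2 each. miR-7212-3p ranged from −0.59 to 0.13, miR-149-3p from −0.50 to 0.02 and miR-33-5p from −0.28 to 0.36.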

How the results depend on the processing

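The counts of lower and higher miRNAs at E16.5 moved most with the scaling: 18 and 5 with all miRNA probes, 17 and 4 with no scaling, and 99 and 9 with control probes, against 58 and 138. Fitting the E16.5 arrays alone gave 47 higher. The count of stage differences (6) was 0 with all miRNA probes (27 at an unadjusted p under 0.05 in limma), 24 with quantile scaling, 3 with median scaling, 2 with no scaling, 12 with normexp background, 3 with no filter (386 miRNAs, leaving out those at the floor on all 8 arrays), 1 with only miRNAs detected on all 8 arrays, 1 with the floor divided by 4, and 17 with the mean of all probes. With 1 array left out, lower miRNAs numbered 48 to 55, higher miRNAs 59 to 134 and stage differences 4 to 42. With a replicate block the counts were 57 lower, 125 higher and 6 stage differences, and of the miRNAs named by the rule 3 lost their call and 2 gained it. The pairing crossed between genotypes, added after seeing the data, gave 56 lower and 140 higher. Of 85 miRNAs named by the rule, 25 kept the same status in every alternative run, whether that was a call or no call. For 8, a called difference changed sign somewhere: miR-33-5p with normexp background (0.054), miR-199a-5p with quantile scaling (−0.021), and with control probes miR-145a-5p (−0.0030), miR-133a-3p (−0.048), miR-223-3p (−0.018), miR-146a-5p (−0.062), miR-322-5p (−0.10) and miR-15a-5p (−0.14). The last 3 also did so with all miRNA probes (−0.019, −0.044 and −0.084) and with no scaling (−0.11, −0.040 and −0.080). The cause was not tested. Signal near background limits the dimmest miRNAs, whose differences are bounds.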

Other observations

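Lower and higher miRNAs were set side by side for base composition and miRBase number. Over the 332 miRNAs with a RefSeq sequence, the median GC content of the mature strand was 47.6% in the lower miRNAs, 54.5% in the higher, 47.8% in those that did not pass and 50% in all, and 40.9% in the 17 lower under every scaling. Across these 332 miRNAs, which share arrays and scaling, the difference at E16.5 and GC content had r = 0.251 and rho = 0.368, given as a description. Of the 58 lower miRNAs 1 carried a miRBase number of 1000 or above, against 49 of the 138 higher and 107 of all 385. The part of base composition in the rises was not tested.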
